A study of Mus musculus with 12 samples.

Results

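IGF1, its receptors and its binding proteins were followed in mouse epididymal white adipose tissue (eWAT) as 9 genes, namely Igf1, Igf1r, Igf2r and Igfbp2 to Igfbp7. They were taken by symbol among the 22891 genes summed from the deposited table, and were chosen with earlier results of these data known. Male C57BL/6J mice were fed from 5 weeks of age, for 16 weeks, until 21 weeks of age. The ND group received a normal diet and the HFD group a high-fat diet. The CLE group received the same high-fat diet with 1.5% (w/w) of an ethanol extract of chrysanthemum leaf. The LU group received it with 0.003% (w/w) of luteolin, a flavonoid of this leaf. RNA of whole tissue was sequenced from 3 individually housed mice per group, picked as representative by the study, and the values are FPKM, fragments scaled to transcript length and to the size of the library. All 3 high-fat groups therefore share the diet, and CLE and LU were each given at 1 dose.

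IGF1 is a secreted growth factor that growth hormone induces in liver and in many other tissues, adipose tissue included. It signals through the tyrosine kinase receptor IGF1R, while IGF2R carries IGF2 and mannose-6-phosphate-tagged enzymes to lysosomes and does not signal as a kinase. The IGF-binding proteins hold IGFs in blood and tissue, where they limit or prolong access to the receptor, and proteases release the bound IGF.

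The 4 groups could first be compared in what they hold of other cell types. The summed FPKM of 10 adipocyte markers was 34220 to 36100 in ND, 17090 to 19310 in HFD, 26700 to 29660 in CLE and 25280 to 30760 in LU. Fabp4 weighed most in it, at 19230 to 20210 FPKM in ND and 10460 to 11880 in HFD. Of these 10, 8 fell in HFD, 1 rose, Lep, and 1 was not called. With CLE 8 rose and 1 fell, and with LU 4 rose and 1 fell, Lep in both cases. The sum of 12 macrophage markers was 406 to 602 in ND, 3380 to 3999 in HFD, 723 to 1252 in CLE and 1198 to 1437 in LU. Of these 12, 11 rose in HFD, 11 fell with CLE and 11 fell with LU. Fibroblast and progenitor markers summed to 1079 to 1202 FPKM in ND and 1773 to 1816 in HFD. Their sum was 1006 to 1097 in CLE and 1133 to 1365 in LU. Of these 10 markers, 4 rose in HFD, 1 fell and 5 were not called. Col3a1 alone was at 148 to 233 FPKM in ND and 697 to 832 in HFD. Endothelial markers summed to 338 to 530 FPKM in ND and 242 to 386 in HFD. Their sum was 384 to 565 in CLE and 422 to 512 in LU. The sum of 6 epididymal markers was 5.54 FPKM in ND mouse 4, 2.17 in LU mouse 3 and at most 1.41 in the other libraries. Crisp1 made up most of it, at up to 5.13 FPKM, while Lcn5 and Ovch2 were listed at 0 in all 12 libraries. Of the 12 labels, those of ND mouse 3, ND mouse 4, LU mouse 2 and CLE mouse 4 hold a letter R, whose meaning is not given, and those of HFD mice do not. The column headers of these same libraries, and of no others used, also end in a further number without a stated meaning.

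Limma tests, two-sided,  tests on log2(FPKM + 1) covered the 12786 genes with at least 1 FPKM in at least 3 libraries, 8 of the 9 members among them. The threshold for a call combined an adjusted p (Benjamini-Hochberg) under 0.05 with a change over 1.5-fold. In HFD against ND, 3 of the 8 members rose (Igf2r, Igfbp3 and Igfbp5) and 0 fell, where 14.9% of all genes were called higher and 10.8% lower. In CLE against HFD, Igf2r alone fell and 0 members rose, where 10.2% of all genes were called lower and 6.34% higher. In LU against HFD, Igf2r was again the 1 member called, lower, where 7.67% of all genes were called lower and 4.78% higher. Both of these comparisons, and HFD against ND, use the same 3 HFD mice.

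**Figure D1:**
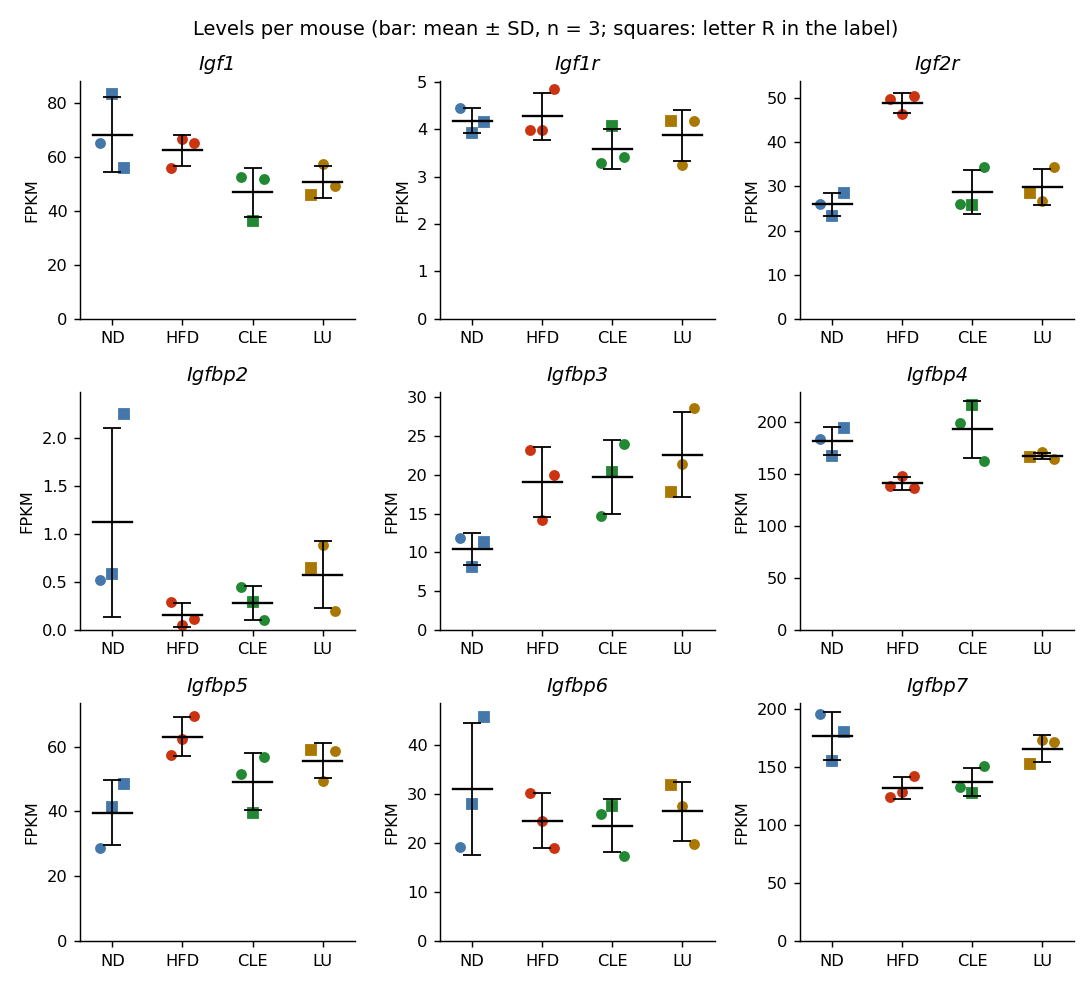
FPKM (vertical axes, from 0) of the 9 genes in each of the 12 mice by group, with points in the order of mouse numbers, the mean and SD (n = 3) as bars, and squares for libraries whose label carries the letter R. Igf2r in HFD lay between 46.4 and 50.5 FPKM, above all other mice, while Igfbp3 was lowest in ND, at 8.13 to 11.8 FPKM.

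Igf1 (chr10:87858265-87937042, plus strand) was well above 1 FPKM in every mouse. Its level was 65.1, 83.4 and 56.0 FPKM in ND mice 2, 3 and 4, and 56.0, 66.6 and 65.1 FPKM in HFD mice 12, 15 and 18. It was 52.5, 36.2 and 51.9 FPKM in CLE mice 2, 4 and 11, and 45.8, 57.2 and 49.0 FPKM in LU mice 2, 3 and 8. The ND and HFD mice overlapped, the 3 CLE mice lay below all ND and HFD mice, and the highest LU mouse lay inside both of those ranges. The log2 difference of HFD from ND was -0.11 ± 0.17 (SE), with an adjusted p of 0.621 in limma. That of CLE from HFD was -0.42 ± 0.17, with a 95% interval from -0.80 to -0.053 and an adjusted p of 0.0741, and did not pass. That of LU from HFD was -0.30 ± 0.17, with an adjusted p of 0.215. Whole tissue was used, so fewer cells of a type and less RNA per cell cannot be told apart, here and below.

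The deposited rows of Igf1 divide the gene into transcripts. Igf1-202 and Igf1-203 both start translation in the same exon, but Igf1-203 holds an exon of 52 bases, at chr10:87915298-87915349 on GRCm38, that Igf1-202 lacks. This exon shifts the reading frame and so gives the end of the IGF1 precursor, the E peptide that is cleaved off, another sequence. The coding ends are shown from 30 bases before the junction, from GENCODE M21 transcripts, with the added exon in capitals. They are shown because the listed shares of these transcripts in ND did not overlap those in the high-fat groups. The shares were not tested.

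Igf1-202: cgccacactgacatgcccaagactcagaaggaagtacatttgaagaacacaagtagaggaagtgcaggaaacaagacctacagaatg

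Igf1-203: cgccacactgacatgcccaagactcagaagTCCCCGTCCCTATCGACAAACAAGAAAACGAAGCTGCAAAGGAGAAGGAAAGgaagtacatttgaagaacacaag

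Igf1-202 was listed at 42.5, 48.3 and 28.8 FPKM in ND and at 21.4, 25.7 and 25.4 FPKM in HFD. In CLE it was listed at 26.4, 16.7 and 21.9 FPKM, and in LU at 18.9, 25.6 and 20.5 FPKM. Every ND mouse lay above every mouse on the high-fat diet. Igf1-203 was listed at 12.3, 21.0 and 12.6 FPKM in ND and at 20.3, 22.9 and 21.0 FPKM in HFD, so that 2 of the 3 HFD mice lay within the ND range. In CLE it was listed at 16.2, 11.2 and 15.6 FPKM, and in LU at 17.03, 18.9 and 14.2 FPKM. As a share of the summed Igf1 FPKM, Igf1-202 made up 51.4% to 65.2% in ND, 38.3% to 39.1% in HFD, 42.3% to 50.3% in CLE and 41.3% to 44.7% in LU. Igf1-203 made up 18.9% to 25.2% in ND, 32.3% to 36.2% in HFD, 30.1% to 31.0% in CLE and 28.9% to 37.2% in LU. The shares of both transcripts in ND thus did not overlap those of any other group. Gene levels in HFD and ND did not overlap for 59.6% of all genes, and transcript shares of other genes were not computed. When each gene was represented by its transcript of highest mean, which is Igf1-202 for Igf1, the log2 difference of HFD from ND was -0.67 with an adjusted p of 0.022, and the call was made. Over all alternatives the adjusted p of this difference ranged from 0.022 to 0.914. With the same transcript, LU against ND was -0.83 with an adjusted p of 0.0313, in a range from 0.0313 to 0.377. With the highest transcript of each gene, 3179 of 12073 genes were called in HFD against ND and 735 in LU against ND.

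Igf1-202 is 7052 bases long, of which 6311 are 3′ untranslated, while Igf1-203 is 1673 bases long with 1104 bases 3′ untranslated. Reads in shared exons were divided between transcripts by the authors' quantification, and transcripts of unequal length draw on different stretches. Some minor rows were near 0 in every mouse of a group. Igf1-205 was at most 4.51e-18 FPKM in ND and 2.42 to 6.11 in HFD. Igf1-206 was 0.406 to 4.49 FPKM in ND and at most 5.99e-05 in HFD. Over all annotated rows, those with an exon that starts where the 52-base exon starts made up 28.5%, 37.5% and 44.2% in ND. In HFD they made up 51.0%, 46.3% and 51.6%. These rows were picked by that start alone, and they include Igf1-201, which ends further on, at chr10:87915894. The same share was 42.9% to 53.8% in CLE, where the lowest mice lay inside the ND range, and 46.3% to 49.5% in LU.

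**Figure D2:**
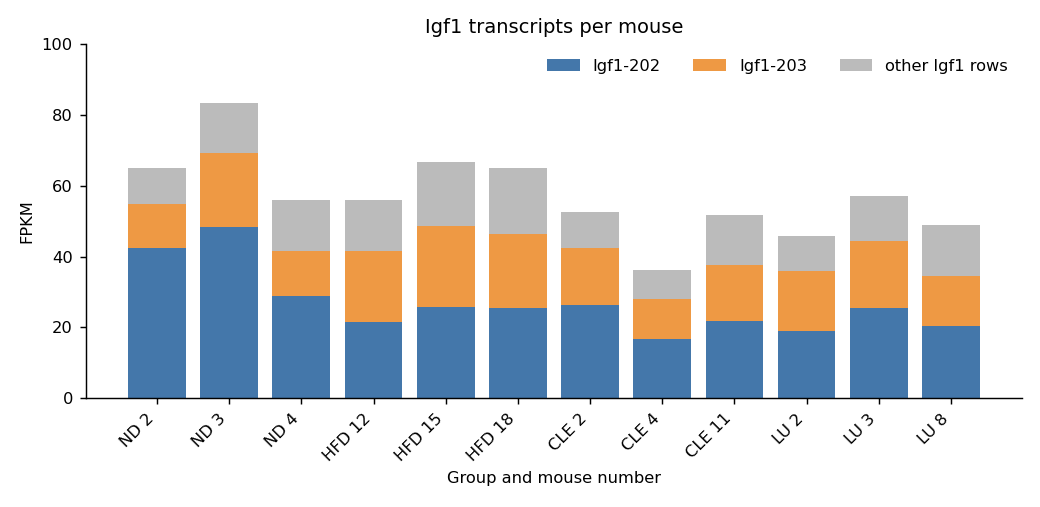
FPKM of Igf1-202, Igf1-203 and all other Igf1 rows, stacked (vertical axis, from 0) for each of the 12 mice by group and mouse number. Igf1-202 took 51.4% to 65.2% of the bar in ND and 38.3% to 39.1% in HFD.

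Among the receptors, Igf1r was low. It lay between 3.25 and 4.85 FPKM in all 12 mice, at a mean of 4.18 ± 0.263 in ND, 4.28 ± 0.496 in HFD, 3.59 ± 0.419 in CLE and 3.87 ± 0.538 in LU (SD, n = 3). All group ranges overlapped with one another. Its adjusted p was 0.174 or higher in each comparison with HFD, and the intervals of its log2 difference ran from -0.21 to 0.26 for HFD against ND, from -0.44 to 0.035 for CLE against HFD and from -0.35 to 0.12 for LU against HFD.

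Igf2r stood apart from the other members in that it was called in all 3 comparisons with HFD. Its level was 25.9, 23.3 and 28.6 FPKM in ND mice 2, 3 and 4, and 49.9, 46.4 and 50.5 FPKM in HFD mice 12, 15 and 18. It was 25.9, 25.9 and 34.5 FPKM in CLE mice 2, 4 and 11, and 28.5, 26.6 and 34.4 FPKM in LU mice 2, 3 and 8. The 3 HFD mice lay above the other 9, whose 3 groups overlapped. In HFD it rose by 0.89 ± 0.13 (SE) on the log2 scale, 1.86-fold, with an adjusted p of 0.000173. With CLE it fell by 0.76 ± 0.13 on that scale relative to HFD, with an adjusted p of 0.00105. With LU it fell by 0.70 ± 0.13, with an adjusted p of 0.00264. Against ND, the log2 difference was 0.13 ± 0.13 in CLE (95% interval from -0.15 to 0.42) and 0.19 ± 0.13 in LU (from -0.093 to 0.48), with adjusted p of 0.570 and 0.373. The exact permutation test gave 0.1 for each difference from HFD, the smallest two-sided p that 3 against 3 mice allow. All these calls were made under every alternative and without any single mouse.

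The macrophage marker sum given above was also highest in HFD and intermediate in CLE and LU, and its part in the level of Igf2r was not tested. The genes whose profile over the 12 mice was nearest to that of Igf2r were Wsb2, Tmem189 and Cd9, at root mean square distances of 0.118, 0.153 and 0.160 between standardized log2(FPKM + 1) values. Igf2r lies at chr17:12682406-12769664 on the minus strand, and 28354 of its bases are shared with Airn on the other strand, from which its reads cannot be told apart where no strand was kept. The annotated full-length row ran from 9.07 to 13.2 FPKM in ND, 26.2 to 31.4 in HFD, 14.1 to 15.7 in CLE and 13.2 to 14.4 in LU. An assembled row of the last part of the gene went the other way, at 6.64 to 9.45 FPKM in ND and 0.722 to 5.30 in HFD, so that the difference in the full-length row was larger than in the sum.

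The promoter of Igf2r is shown as the 250 bases before its start in RefSeq (GRCm38.p6, chr17:12769707-12769956, minus strand), since it was the one member called in both directions. The capitals mark CACGTG, the palindromic E-box, a motif chosen after this sequence had been seen.

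Igf2r: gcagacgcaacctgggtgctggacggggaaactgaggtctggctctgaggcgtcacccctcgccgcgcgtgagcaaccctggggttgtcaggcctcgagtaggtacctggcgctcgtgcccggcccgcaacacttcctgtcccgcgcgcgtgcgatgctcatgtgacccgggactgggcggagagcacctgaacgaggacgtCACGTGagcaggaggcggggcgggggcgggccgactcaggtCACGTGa

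The letters occur at 48 and 7 bases before the start. Of 32851 RefSeq windows of this length, 6.02% held CACGTG at least once and 0.429% at least 2 times. Among the other members, the Igfbp2 window at chr1:72824230-72824479 held 1 copy, at 142 bases before the start. A further Igfbp2 window, at chr1:72825137-72825386, and the windows of the other members held none. These windows follow RefSeq starts. That of Igf1, chr10:87860861-87861110, lies downstream of the starts of Igf1-202 and Igf1-203, at 87859068 and 87859258. That of Igfbp6 ends at chr15:102144185, before the GENCODE start at 102144362. A match of letters is a description and says nothing of binding.

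**Figure D3:**
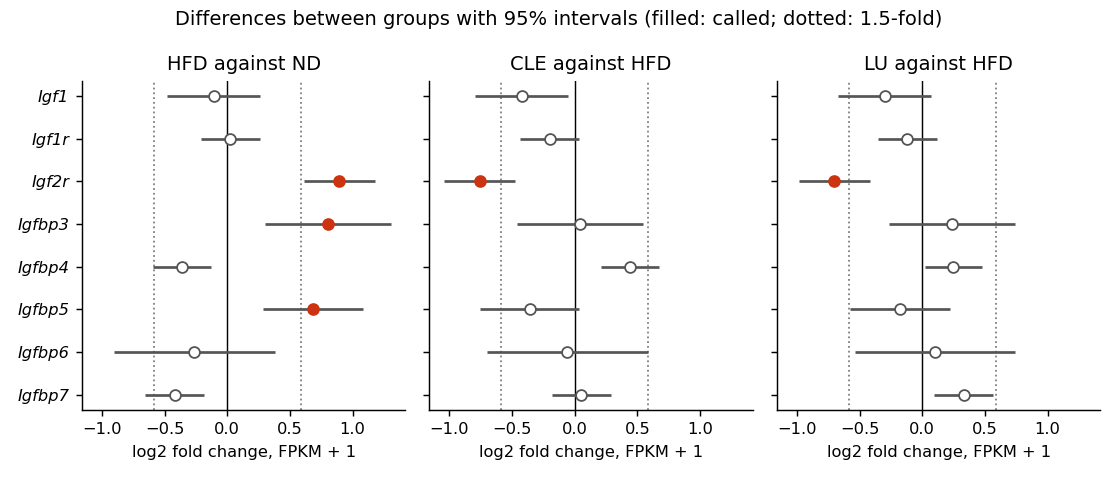
Log2 fold change of FPKM + 1 (horizontal axis) with its 95% interval for the 8 tested members in HFD against ND, CLE against HFD and LU against HFD; filled points were called and dotted lines mark 1.5-fold. Igf2r, at 0.89, -0.76 and -0.70, was the member called in each panel, and the intervals of Igf1r and Igfbp6 crossed 0 throughout.

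Of the binding proteins, Igfbp4 and Igfbp7 supplied most of the RNA. Per length, Igfbp4 made up 35.3% to 50.2% of the summed FPKM of Igfbp2 to Igfbp7 and Igfbp7 made up 29.5% to 44.5%. The sum was 440 ± 40.8 FPKM in ND, 379 ± 6.97 in HFD, 423 ± 10.1 in CLE and 439 ± 8.91 in LU (SD, n = 3), and the 3 HFD mice, at 373, 378 and 387 FPKM, were the lowest of the 12. The Igfbp5 share was 15.4% to 17.9% in HFD, above all other mice, and 6.53% to 10.4% in ND. The Igfbp3 share was 2.03% to 2.69% in ND, below all other mice.

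Igfbp3 (chr11:7206086-7213923, minus strand), the main carrier of IGFs in blood, was lowest in ND. It was at 11.8, 8.13 and 11.3 FPKM in ND, and at 23.2, 14.2 and 19.9 FPKM in HFD. It was at 14.6, 20.4 and 24.1 FPKM in CLE, and at 17.8, 21.4 and 28.6 FPKM in LU. No mouse on the high-fat diet reached down to the ND range, and the 3 high-fat groups overlapped. It rose by 0.80 ± 0.23 (SE) on the log2 scale in HFD against ND, with an adjusted p of 0.0126. The log2 difference from HFD was 0.043 ± 0.23 in CLE and 0.23 ± 0.23 in LU, with intervals from -0.46 to 0.55 and from -0.27 to 0.74. Against ND it rose by 1.04 ± 0.23 in LU (adjusted p 0.0137), where 4.98% of all genes were called higher and 1.6% lower, and differed by 0.85 ± 0.23 in CLE, which missed the threshold (adjusted p 0.0549). In CLE against ND 0 of the 8 members were called by limma, where 3.0% of all genes were called. An unadjusted p under 0.05 was found for 3 of the 8, and for 23.3% of all genes.

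The call of Igfbp3 in HFD was lost with the letter R as a covariate (0.67, adjusted p 0.0646), among libraries without the letter (0.62, 0.182), without ND mouse 3 (0.65, 0.050013) and without HFD mouse 12 (0.66, 0.0557), in a range over all alternatives from 0.00639 to 0.182. In LU against ND it was lost without LU mouse 8 (0.86, adjusted p 0.0605) and among libraries without the letter R (1.01, 0.133), in a range from 0.0106 to 0.133. In CLE against ND it was gained without CLE mouse 2 (1.04, adjusted p 0.0315) and without LU mouse 8 (0.85, 0.0472), in a range from 0.0315 to 0.363.

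Igfbp5 (chr1:72857932-72874884, minus strand), a binding protein that also attaches to extracellular matrix, had its highest mean in HFD, followed by LU, CLE and ND. It was at 28.7, 41.5 and 48.6 FPKM in ND and at 57.4, 62.4 and 69.4 FPKM in HFD. It was at 51.5, 39.6 and 56.7 FPKM in CLE and at 58.9, 49.4 and 58.8 FPKM in LU. The HFD mice lay above all ND and CLE mice and overlapped with LU, and CLE overlapped with both LU and ND. Igfbp5 rose by 0.69 ± 0.18 (SE) on the log2 scale in HFD, with an adjusted p of 0.00847. The log2 difference from HFD was -0.36 ± 0.18 in CLE (adjusted p 0.150) and -0.18 ± 0.18 in LU (0.504), and neither passed. The rise in HFD went under 1.5-fold without ND mouse 2 (0.48, adjusted p 0.0284), with array weights (0.56, 0.0102), without assembled transcripts (0.56, 0.0338), and with the highest transcript, where the adjusted p missed as well (0.49, 0.0614). The range over all alternatives was 0.00226 to 0.0614. Of 10 fibroblast and progenitor markers, 4 also rose in HFD, namely Col1a1, Col3a1, Lum and Pdgfrb, 1 fell, Ly6a, and 5 were not called. The part of these cells in the result was not tested. The nearest profiles were those of Ephb2, Marc1 and Col6a2, at distances of 0.208, 0.279 and 0.282, the last a collagen VI chain.

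Igfbp4, a binding protein that PAPP-A cleaves and that holds IGF1 off its receptor, was lowest in HFD. It was at 184, 167 and 194 FPKM in ND and at 138, 148 and 136 FPKM in HFD. It was at 200, 217 and 163 FPKM in CLE and at 167, 171 and 165 FPKM in LU. All 3 HFD mice lay below all 9 other mice. The log2 difference of HFD from ND was -0.36 ± 0.10 (SE), with an adjusted p of 0.0134, and that of CLE from HFD was 0.44 ± 0.10, with an adjusted p of 0.00737. Both were under 1.5-fold and so were not called. LU differed from HFD by 0.25 ± 0.10, with an adjusted p of 0.101. The nearest profiles were those of Zfp13, Insig2 and Dnah3, at distances of 0.268, 0.289 and 0.328.

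Igfbp7, which binds IGFs weakly and is abundant in vessel walls, was at 196, 155 and 180 FPKM in ND and at 124, 129 and 142 FPKM in HFD. It was at 132, 127 and 150 FPKM in CLE and at 152, 173 and 172 FPKM in LU. HFD and CLE overlapped and lay below ND, and LU lay above all HFD and CLE mice. The log2 difference of HFD from ND was -0.42 ± 0.11 (SE), with an adjusted p of 0.00705, and that of LU from HFD was 0.33 ± 0.11, with an adjusted p of 0.0411. Both were under 1.5-fold. With CLE it was 0.053 ± 0.11 from HFD, with an interval from -0.18 to 0.29. Over all alternatives the adjusted p of LU against HFD ranged from 0.0144 to 0.134. Of 8 endothelial markers, 2 fell in HFD, and 4 rose with CLE and 5 with LU. Their part in the level of Igfbp7 was not tested. Igfbp7 shares 85 bases with Polr2b and 7085 with Gm34648 on the other strand, and Igf1 shares 5117 with Igf1os, so that antisense reads cannot be told apart there.

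With Igfbp4 and Igfbp7 counted by the adjusted p alone, 5 of the 8 members differed in HFD against ND, where 50.5% of all genes did. In the same way 2 members, Igf2r and Igfbp4, differed in CLE against HFD, where 33.7% of all genes did, and Igf2r and Igfbp7 in LU against HFD, where 27.0% did. The same 5 members had groups that did not overlap, as did 59.6% of all genes.

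Igfbp6, which prefers IGF2 to IGF1, ranged widely within groups. It was at 19.3, 27.9 and 45.7 FPKM in ND, 30.3, 24.4 and 19.0 in HFD, 25.9, 27.6 and 17.3 in CLE and 31.8, 27.7 and 19.9 in LU. All groups overlapped, and none of its differences was called. Igfbp2, known as a product of liver and of precursor cells of fat, was at 0.524, 0.579 and 2.25 FPKM in ND, at 0.290, 0.0455 and 0.116 in HFD, at 0.444, 0.294 and 0.0988 in CLE and at 0.647, 0.887 and 0.192 in LU. It reached 1 FPKM in ND mouse 4 only and so did not enter the main test. With no filter on low values its log2 difference of HFD from ND was -0.79 ± 0.28 (SE), with an adjusted p of 0.0547. ND mouse 4 held the highest level of both Igfbp2 and Igfbp6. The same mouse also had the highest sum of 8 mesothelial markers, at 65.9 FPKM against 13.1 and 23.8 in the other ND mice and 2.36 to 18.3 in the other groups, and the part of these cells in either value was not tested.

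**Figure D4:**
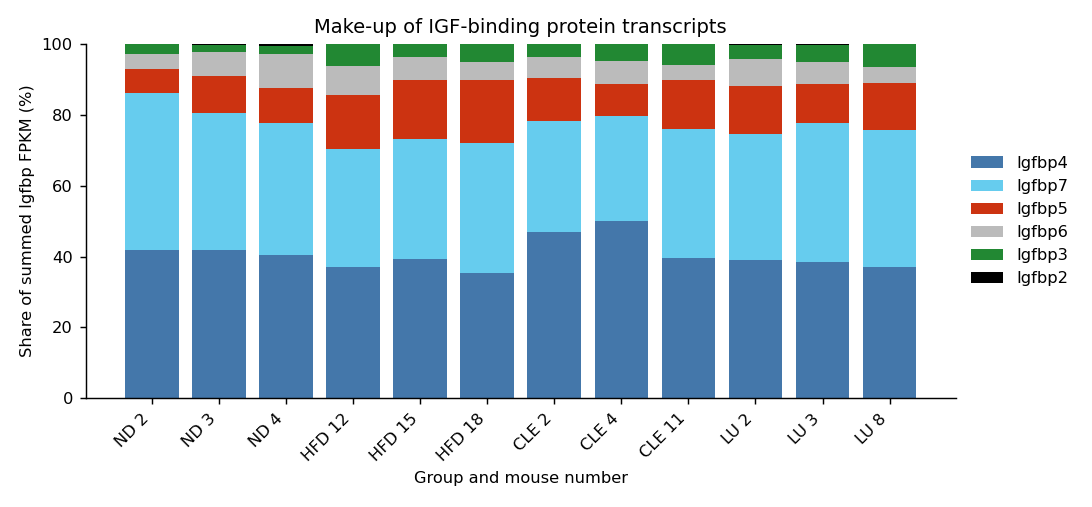
Share of each binding protein gene in the summed FPKM of Igfbp2 to Igfbp7 (vertical axis, percent) for each of the 12 mice by group and mouse number. Igfbp4 and Igfbp7 fill most of every bar, and the Igfbp5 band is widest in HFD, at 15.4% to 17.9%.

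CLE and LU, an extract and a flavonoid of the same leaf at different doses, could be set beside each other on the high-fat diet. In limma 0 of the 8 members were called between them, where 0.00782% of all genes were called, and 1 member, Igfbp7, had an unadjusted p under 0.05, as did 5.22% of all genes. Igfbp7 was at 137 ± 12.2 FPKM in CLE and 166 ± 11.7 in LU (SD, n = 3). The log2 difference was -0.28 ± 0.11 (SE), with an interval from -0.51 to -0.042 and an adjusted p of 0.897. For Igf2r the interval ran from -0.34 to 0.23, and for Igfbp4 from -0.036 to 0.42, which leaves room for differences of that size.

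The remaining genes of the IGF axis were taken from 4 lists of 42 genes, 36 of them tested. Of the other ligands and carriers, Igf2 and Igfals were tested. Igf2, the second IGF and the ligand of IGF2R, was at 5.59, 3.63 and 3.11 FPKM in ND, 1.21, 1.28 and 1.53 in HFD, 3.42, 3.98 and 2.21 in CLE and 3.11, 2.67 and 2.65 in LU. All 3 HFD mice were below the other 9, opposite to Igf2r. Igf2 fell by 1.10 ± 0.18 (SE) on the log2 scale in HFD (adjusted p 0.000441) and rose by 0.83 ± 0.18 with CLE (0.00495) and by 0.71 ± 0.18 with LU (0.0150). Without assembled transcripts the rises were 0.88 (adjusted p 0.0691) with CLE and 0.78 (0.116) with LU, and with the highest transcript 0.76 (0.0614) and 0.41 (0.321). The call with LU was also lost without HFD mouse 12 (0.66, 0.0542) or LU mouse 2 (0.65, 0.0516), and over all alternatives its adjusted p ranged from 0.0017 to 0.321. Igfals, the acid-labile subunit that binds the complex of IGF and IGFBP3, was at 7.81, 18.3 and 15 FPKM in ND, 30.9, 44.2 and 38.6 in HFD, 16.0, 12.6 and 26.2 in CLE and 21.7, 22.2 and 38.3 in LU. It rose by 1.46 ± 0.33 in HFD (adjusted p 0.00307) and fell by 1.06 ± 0.33 with CLE (0.0263), while LU overlapped with HFD. The fall with CLE missed the threshold without HFD mouse 15 (-0.95, adjusted p 0.0861), HFD mouse 18 (-1.04, 0.0683), CLE mouse 2 (-1.003, 0.0737) or CLE mouse 4 (-0.84, 0.106). It was also not called with no filter on low values (-1.06, adjusted p 0.0590), nor among libraries without the letter R, where it was -0.84. Over all alternatives its adjusted p ranged from 0.00411 to 0.106.

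In the growth hormone receptor pathway, which induces Igf1, 1 of 9 genes rose and 2 fell in HFD, where 14.9% of all genes were called higher and 10.8% lower. Ptpn1, a phosphatase that dampens this and the insulin receptor, was at 15 to 19.0 FPKM in ND and 34.4 to 36.6 in HFD, and rose by 1.02 ± 0.14 (SE) on the log2 scale. Socs2 and Cish, feedback inhibitors that STAT5 induces, fell by 0.63 ± 0.089 and 2.25 ± 0.64. Cish was at 12.4, 28.8 and 6.88 FPKM in ND and 1.07 to 3.51 in HFD, and its call was lost without ND mouse 3 (-1.74, adjusted p 0.0517) or HFD mouse 12 (-1.96, 0.0509), in a range from 0.00142 to 0.0906. Ptpn1 fell with CLE, by 0.84 ± 0.14, and with LU, by 0.76 ± 0.14, and Socs2 rose with LU, by 0.66 ± 0.089, or 0.5847 without LU mouse 3, just under 1.5-fold. With the highest transcript, the differences with LU were -0.578 for Ptpn1 (adjusted p 0.0106) and 0.55 for Socs2 (0.0241), both under 1.5-fold. Among libraries without the letter R, the difference of Socs2 in HFD against ND was -0.54, also under 1.5-fold. The receptor gene Ghr lay at 481 to 518 FPKM in HFD, below all other mice, which spanned 587 to 849. Its log2 difference of HFD from ND was -0.41 ± 0.12, with an adjusted p of 0.0131, under 1.5-fold. Of 6 tested genes for IGFBP proteases and stanniocalcins, 2 rose in HFD, where 14.9% of all genes did, the metalloproteases Adam12 by 1.09 ± 0.19 and Adam9 by 0.68 ± 0.080. Adam9 turned to -0.41 (adjusted p 0.0173) with its highest transcript in place of the sum and was at 0.14 (0.323) without assembled transcripts, in a range from 1.12e-05 to 0.323. Adam12 fell with CLE by 1.01 ± 0.19 and with LU by 0.81 ± 0.19, the latter -0.56 (adjusted p 0.0171) without LU mouse 8. With the highest transcript the differences of Adam12 were 0.53 (adjusted p 0.263) in HFD, -0.51 (0.336) with CLE and -0.72 (0.189) with LU. Without assembled transcripts they were 0.98 (adjusted p 0.0506), -1.08 (0.0503) and -1.13 (0.0501), and were not called. Pappa and Pappa2, the genes of the pappalysins, were not tested.

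Downstream of the receptors, 10 of 19 signalling genes fell in HFD and 1 rose, where 10.8% of all genes were called lower and 14.9% higher, with a median log2 difference of -0.59 against -0.019 over all genes tested. Insr, the insulin receptor, was at 42.8 to 55.1 FPKM in ND and 22.3 to 23.3 in HFD and fell by 1.03 ± 0.11 (SE), though the difference was -0.27 (adjusted p 0.228) without assembled transcripts, in a range from 7.88e-06 to 0.228. Irs1 and Irs2, the docking proteins of both receptors, fell by 1.16 ± 0.17 and 0.80 ± 0.16. Grb10, an adaptor that inhibits both receptors, fell by 1.33 ± 0.22, and Akt2, the main insulin-responsive AKT kinase of fat, fell by 0.90 ± 0.13. With CLE, 5 of the 19 rose and 0 fell, namely Insr, Irs2, Grb10, Akt2 and Eif4ebp1, where 6.34% of all genes were called higher and 10.2% lower. Insr was at 0.24 (adjusted p 0.343) with CLE without assembled transcripts, in a range from 8.19e-05 to 0.343. Akt2 with CLE went under 1.5-fold without HFD mouse 18 (0.57, adjusted p 0.0184) or CLE mouse 2 (0.51, 0.0179). With LU 2 of the 19 rose, Irs2 and Grb10, where 4.78% of all genes were called higher. The count with LU was 1 without HFD mouse 12 or LU mouse 3, where Grb10 was at 0.69 (adjusted p 0.0884) and 0.59 (0.106), and 6 without LU mouse 8. In these settings 1368, 1357 and 1695 of 12786 genes were called in LU against HFD, in either direction. The call of Grb10 with LU was also lost without HFD mouse 15 (0.79, adjusted p 0.0524) or HFD mouse 18 (0.77, 0.0609), and with no filter on low values (0.75, 0.0551). Over the libraries left out in turn, its adjusted p ranged from 0.0114 to 0.106. Without assembled transcripts, 6 of the 19 fell in HFD, where 3118 of 12101 genes were called in either direction. The medians over the list were 0.12 with CLE and 0.073 with LU, against 0.0052 and 0.032 over all genes. The adipocyte marker sum was lower in HFD than in ND and higher again in CLE and LU, and its part in these results was not tested.

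**Figure D5:**
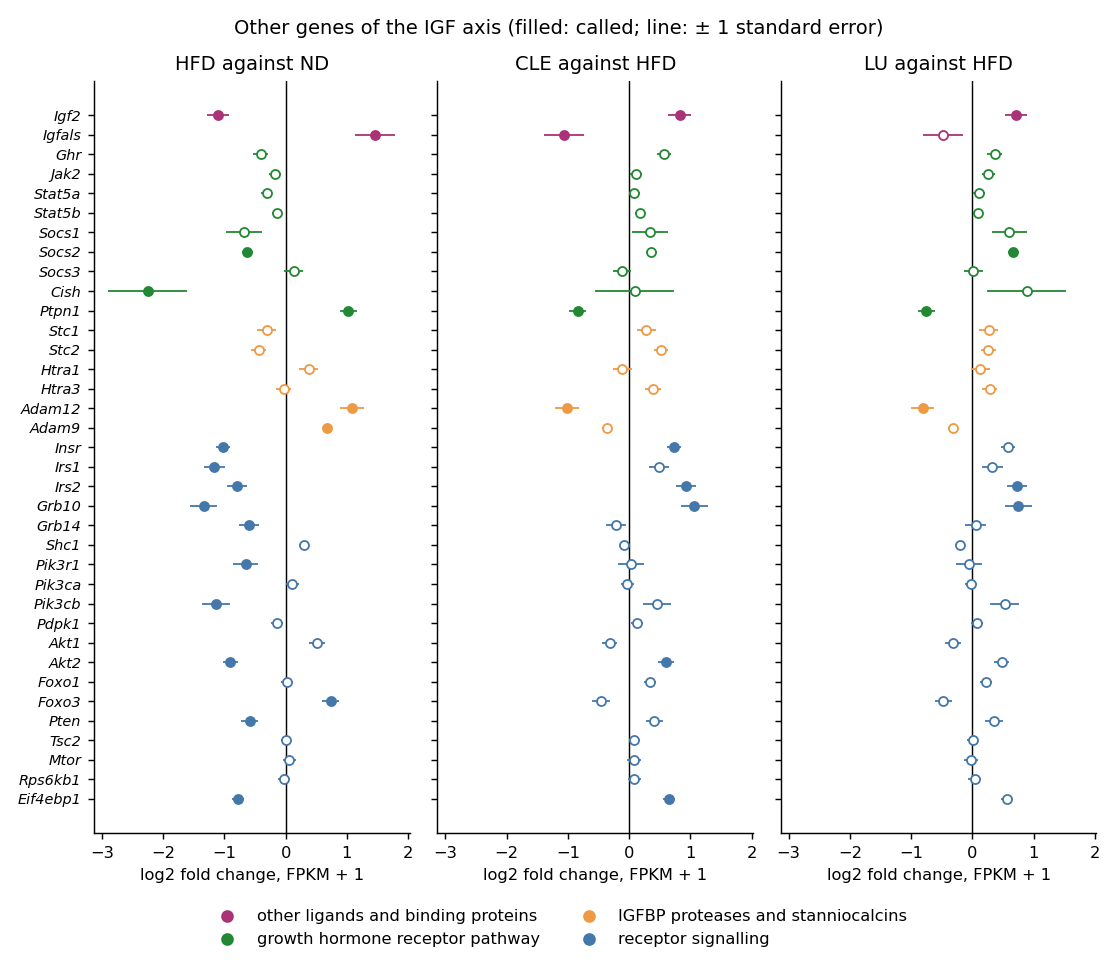
Log2 fold change of FPKM + 1 (horizontal axis, line of 1 standard error to each side) for the 36 other tested genes of the IGF axis, coloured by list, in HFD against ND, CLE against HFD and LU against HFD; filled points were called. Igf2 lies at -1.10, 0.83 and 0.71, and most signalling genes called in HFD lie to the left of 0.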

How the data were processed

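Libraries were prepared by the authors from poly(A) RNA with a TruSeq kit and sequenced in pairs. The submitters' processing notes name CASAVA 1.8.2, Bowtie2 2.2.3, TopHat2 2.0.12 and Cufflinks 2.2.1. The authors deposited FPKM per transcript for 152210 rows, annotated or assembled, with marks of their own comparisons, which were not used. The header of the column used for ND mouse 4 reads MD4, and it was assigned by its number and letter, and because the authors' comparison of ND with HFD lists it with the other ND mice. Of 15 FPKM columns, 3 matched no sample and were not used.

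Rows of an Ensembl transcript were summed per gene by GENCODE M21 (GRCm38), where 76916 of 78786 known transcripts were found. Gene totals ranged from 436426 to 456232 FPKM, and no further scaling was applied. FPKM carry no depth, so counting error is unknown and no floor is given. Values were taken to log2(FPKM + 1), which understates changes of low genes, and fitted with limma 3.58.1 in R 4.3.3, with all 12 libraries in 1 fit, no covariate and no trend. On simulated data for these 12786 genes the fit was tested before use. Python 3.11.15, pandas 2.3.3, numpy 2.4.6 and matplotlib 3.10.9 were used. The study's count test was not repeated, since the table holds no counts.

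All 9 members were named, with axis genes that were called against ND or HFD, and the rule also took the 3 nearest profiles of each member, given for Igf2r, Igfbp4 and Igfbp5 and not reported here for the others. Ghr and the untested genes were named after their values were seen. The members and lists were chosen with earlier results of these data known. Alternatives were a pseudocount of 0.1, no filter or a mean of at least 5 FPKM, scaling by totals, median ratios or quantiles, the compared groups alone, a trend, array weights, a covariate for the letter R or its libraries left out, the adjusted p alone, the highest transcript, no assembled transcripts, the mouse number as a block and each library left out.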

Additional observations from a re-analysis of the deposited data

How the results depend on the processing

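Igf2r was called in HFD against ND, CLE against HFD and LU against HFD under every alternative. By the adjusted p alone, 5 members were called in HFD against ND, 2 in CLE against HFD and 2 in LU against HFD. Of all genes, 50.5%, 33.7% and 27.0% passed this rule in the same comparisons. In CLE against ND, 1 member, Igfbp3, was called with a mean of at least 5 FPKM, scaling by median ratios, quantile normalization or a trend, in place of 0. Of all genes, 346 of 9336 were called with that mean, and 405, 370 and 407 of 12786 with the others, in that order. In LU against ND, 2 members were called with the highest transcript, Igf1 and Igfbp3, where 735 of 12073 genes were called. When each library was left out in turn, 0 to 1 members were called in CLE against ND and 0 to 2 in LU against ND, the latter 2 without ND mouse 4 and 0 without LU mouse 8. Without these mice, 964 and 572 of 12786 genes were called in LU against ND. In CLE against ND, 132 to 504 genes were called over the libraries left out. Of 19 signalling genes, by the adjusted p alone 3 were higher in HFD against ND, 8 higher and 1 lower in CLE against HFD, and 5 higher and 1 lower in LU against HFD. The shares of all genes by this rule, in either direction, are given above. Without assembled transcripts 6 fell in HFD, and 1 was lower with LU, where 3118 and 1424 of 12101 genes were called in either direction. Without libraries of the letter R 0 rose in HFD, and without a filter 1 rose with LU. Over all genes, 1475 of 19228 were called in LU against HFD without a filter. With each library left out, 1 to 2 signalling genes rose in HFD against ND and 1 to 6 in LU against HFD. In either direction, 3154 to 3393 and 1357 to 1695 of 12786 genes were then called. Adam9 turned from 0.68 to -0.41 in HFD against ND with the highest transcript. Among members, the sign turned only in differences that were not called. Leaving out each library, the log2 difference ranged from -0.24 to 0.046 for Igf1 in HFD against ND, from -0.15 to 0.23 for Igfbp3 in CLE against HFD and from -0.018 to 0.11 for Igfbp7 in CLE against HFD. Over all alternatives and all comparisons, the sign for Igf1r and Igfbp6 turned in 12 of 153 and 17 of 159 values, and none was called. The causes were not tested.

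Some mouse numbers recur in ND, CLE and LU, but the mice are separate animals. The correlation of deviations between mice of the same number was -0.10 to 0.19, so the numbers were not taken to pair them. With the number as a block, 0 members were called in LU against ND, in CLE against ND or in CLE against LU. Of all 12786 genes, 416, 2 and 0 were called in these comparisons, in that order, so the member counts say little about the members. Igfbp3 was then at 0.97 in LU against ND, with an adjusted p of 0.0630. Over the libraries left out in turn, its adjusted p ranged from 0.0106 to 0.0605. With the block, Igf2r differed by -0.058 between CLE and ND. HFD shares no number with the other groups.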
